A study of Homo sapiens with 6 samples.

Results

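The 40 genes described here are human genes of homologous recombination and of the Fanconi anaemia pathway, taken by symbol from a table of 46427 genes, and each symbol matched exactly 1 row. The question was how their mRNA differed between HCT116 cells with and without the transcription factor ZKSCAN3, and how far a single knockout culture set the answer. HCT116 is an established human colon carcinoma line. *ZK3*-WT stands for 3 cultures of the parental line, and *ZK3*-KO for 3 cultures of HCT116 cells in which CRISPR/Cas9 was used to remove the *ZKSCAN3* start codon in exon 1 on both alleles. Both genotypes grew in DMEM with 10% FBS. The knockout line came from single cells selected under puromycin, a step the parental line did not go through, so traits of the founding cell and the effect of the deletion cannot be told apart. RNA was sequenced from stranded libraries of polyadenylated RNA as paired-end reads.

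Homologous recombination repairs a double-strand break, or a broken replication fork, by copying the intact sister chromatid. Broken ends are sensed and trimmed to single strands, BRCA1 with its partners brings BRCA2 to them, the trimmed strand pairs with the sister chromatid, and helicases and nucleases resolve the joined molecules. The Fanconi pathway clears links between the strands of DNA: a core complex of FANC proteins attaches ubiquitin to FANCD2 and FANCI, and nucleases and homologous recombination complete the repair. Many of these genes are transcribed mainly in the S and G2 phases of the cell cycle, in part through E2F factors at their promoters, and inherited loss of several of them causes Fanconi anaemia or a predisposition to cancer.

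The promoters of 4 members are shown because they held 0, 1 or 2 matches to E2F-like letters, the feature set beside the differences between cultures later. The letters searched were TTTCCCGC, TTTCGCGC, TTTGCCGC and TTTGGCGC on either strand, and capitals mark each match. The windows are RefSeq promoters of build GRCh38.p14, from 250 bases before to 50 bases after the gene's start, printed 5′ to 3′ on the gene's strand. *XRCC2* (chr7:152676092-152676391, minus strand) held 1 match that begins 21 bases after the start, *FANCD2* (chr3:10026187-10026486, plus strand) held 1 match across the start, and *FANCC* (chr9:95317660-95317959, minus strand) held 2 matches, 172 and 46 bases before it. *BRIP1* (chr17:61863479-61863778, minus strand), the member that differed most between cultures, held none of these letters.
XRCC2 promoter: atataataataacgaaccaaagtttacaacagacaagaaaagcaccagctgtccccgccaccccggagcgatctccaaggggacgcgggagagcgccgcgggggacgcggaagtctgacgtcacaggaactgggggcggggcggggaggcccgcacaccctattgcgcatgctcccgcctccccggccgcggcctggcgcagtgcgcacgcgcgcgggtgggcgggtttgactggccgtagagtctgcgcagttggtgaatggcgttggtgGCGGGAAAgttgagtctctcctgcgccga
FANCD2 promoter: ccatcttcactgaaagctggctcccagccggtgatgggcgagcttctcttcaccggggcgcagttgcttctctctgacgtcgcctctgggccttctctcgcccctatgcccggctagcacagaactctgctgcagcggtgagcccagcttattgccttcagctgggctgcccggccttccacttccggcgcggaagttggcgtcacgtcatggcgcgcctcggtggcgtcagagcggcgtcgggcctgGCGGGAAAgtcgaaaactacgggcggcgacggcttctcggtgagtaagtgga
FANCC promoter: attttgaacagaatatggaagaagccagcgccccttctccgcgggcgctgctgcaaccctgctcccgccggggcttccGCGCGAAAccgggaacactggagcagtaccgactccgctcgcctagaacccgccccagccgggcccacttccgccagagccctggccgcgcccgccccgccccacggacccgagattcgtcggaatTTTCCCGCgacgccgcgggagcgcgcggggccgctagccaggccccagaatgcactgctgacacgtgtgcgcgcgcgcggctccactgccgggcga
BRIP1 promoter: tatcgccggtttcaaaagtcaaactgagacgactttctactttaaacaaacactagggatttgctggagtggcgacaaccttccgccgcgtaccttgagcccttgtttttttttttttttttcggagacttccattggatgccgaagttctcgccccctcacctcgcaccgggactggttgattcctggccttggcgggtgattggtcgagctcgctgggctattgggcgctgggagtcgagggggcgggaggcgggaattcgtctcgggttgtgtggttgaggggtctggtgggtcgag

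RefSeq listed promoters for 36 of the 40 members, and those of *RAD54B*, *NBN*, *FANCI* and *RECQL4* were not listed. The E2F-like letters stood in the promoters of 5 of the 36 (13.9%), namely *XRCC2*, *TOPBP1*, *FANCA*, *FANCC* and *FANCD2*, against 3.33% of all 27305 listed promoters and 5.16% of the 13011 promoters of tested genes. The letters TTTGAA on either strand, which are those of the CHR element of genes active in G2 and mitosis, stood in 5 of the 36 (13.9%), against 15.4% of all promoters and 9.97% of those of tested genes. Neither string contains the other. These matches describe the letters of the windows and are not evidence of binding.

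Every library held between 60827060 and 69739215 counted reads, and each member was counted with at least 354 and at most 34456 reads in a library. Counting error was not compared with the differences between cultures for each member. Levels are given below as CPM, counts scaled to library size after TMM normalization, which compare 1 gene across libraries. *ZK3*-KO replicate 3 stood apart from the other *ZK3*-KO libraries: across genes, its log2 CPM correlated with that of *ZK3*-KO replicates 1 and 2 at 0.963 and 0.950, against 0.985 between those libraries and at least 0.983 among *ZK3*-WT libraries. Its correlations with *ZK3*-WT replicates 1, 2 and 3 were 0.952, 0.952 and 0.965. Those of *ZK3*-KO replicates 1 and 2 with *ZK3*-WT libraries ranged from 0.956 to 0.974. The values of *ZK3*-KO replicate 3 are shown apart, and tests were run with and without it. That choice was made beforehand, with earlier results of these data known, and does not rest on these correlations. Reads on *ZKSCAN3* itself did not separate the genotypes (CPM 28.1, 23.4 and 19.8 in the parental cultures, against 25.4, 24.9 and 13.6 in the knockout cultures), and a count over the whole gene does not test whether a start codon is missing. The epithelial markers *EPCAM*, *CDH1*, *KRT8*, *KRT18*, *KRT19*, *VIL1* and *CDX2* summed to 2950 to 3742 CPM in *ZK3*-WT libraries and 2740 to 5448 CPM in *ZK3*-KO libraries, although *VIL1* was at or near 0. The highest sum was that of *ZK3*-KO replicate 3, against 2933 and 2740 CPM in replicates 1 and 2, with *KRT18* at 1449 against 593 and 645 CPM and *CDH1* at 218 against 115 and 85.3 CPM. Markers of endothelium (*PECAM1*, *CDH5* and *KDR*) summed to 1.55 CPM at most, and those of fibroblasts (*COL1A1*, *COL1A2*, *COL3A1* and *PDGFRB*) to 44.8 to 57.0 CPM in *ZK3*-WT and 32.8 to 99.3 CPM in *ZK3*-KO libraries, nearly all of it *COL1A1*, which was also highest in *ZK3*-KO replicate 3, at 98.8 against 49.7 and 32.2 CPM in replicates 1 and 2. The epithelial sum and *COL1A1* thus stood highest in the library in which most members stood lowest, and their part in the members' differences was not tested.

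Among themselves the members differed widely in level. By TPM, which allows for transcript length, *PARP1*, the enzyme that marks DNA breaks with poly(ADP-ribose), was the most abundant member in *ZK3*-WT cells at 152 ± 30.0 TPM (SD, n = 3). It was followed by *UBE2T*, the ubiquitin-conjugating enzyme of the Fanconi pathway, at 65.6 ± 10.2 TPM, and by *RBBP8* (CtIP), which starts end trimming, at 59.9 ± 12.9 TPM. At the low end stood *FANCM*, a DNA translocase that carries the core complex, at 3.94 ± 0.748 TPM, *BRCA2* at 4.59 ± 0.543 TPM and *RAD51D* at 4.73 ± 0.249 TPM, which overlap each other within 1 SD. The SD of *UBE2T* and *RBBP8* also overlap, whereas *PARP1* lay more than 1 SD above both.

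With all 6 libraries compared, no member passed the test of a difference between the genotypes. None of the 40 passed a false discovery rate (FDR, the Benjamini-Hochberg adjusted p-value) of 0.05 in edgeR's quasi-likelihood test, against 2.05% of all 18366 genes tested. None passed in DESeq2 either, where 1506 of the same 18366 genes did. At an unadjusted p-value under 0.05 there were 4 members in either tool (*XRCC3* and *FANCM* higher, *RAD50* and *TP53BP1* lower), against a background of 18.4% of genes in edgeR. The background in DESeq2 at that p-value is not given here. The lowest FDR was 0.184, for *TP53BP1*. By sign, 28 members were higher and 12 lower in *ZK3*-KO cells, where 51.7% of all genes were higher, and the median log2 fold change was 0.24, against 0.02 over all genes tested.

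The knockout cultures themselves went in opposite directions. Set against the mean of the parental libraries, the median log2 ratio of the 40 members was 0.44 in *ZK3*-KO replicate 1, 0.68 in replicate 2 and -0.59 in replicate 3, while it lay between -0.09 and 0.17 in the *ZK3*-WT libraries. Above the *ZK3*-WT mean were 30 members in replicate 1 and 35 in replicate 2, but only 3 in replicate 3 (*RAD51B*, *XRCC3* and *MUS81*). Of all 18366 genes tested, 8959, 8619 and 9025 lay above it in replicates 1, 2 and 3. The lowest of all 6 libraries was *ZK3*-KO replicate 3 for 32 members, against 27.5% of all genes, and the highest was *ZK3*-KO replicate 2 for 32 members, against 22.1% of all genes. In bulk RNA, a smaller share of cells in the phases that transcribe these genes and less RNA per cell cannot be told apart.

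**Figure D1:**
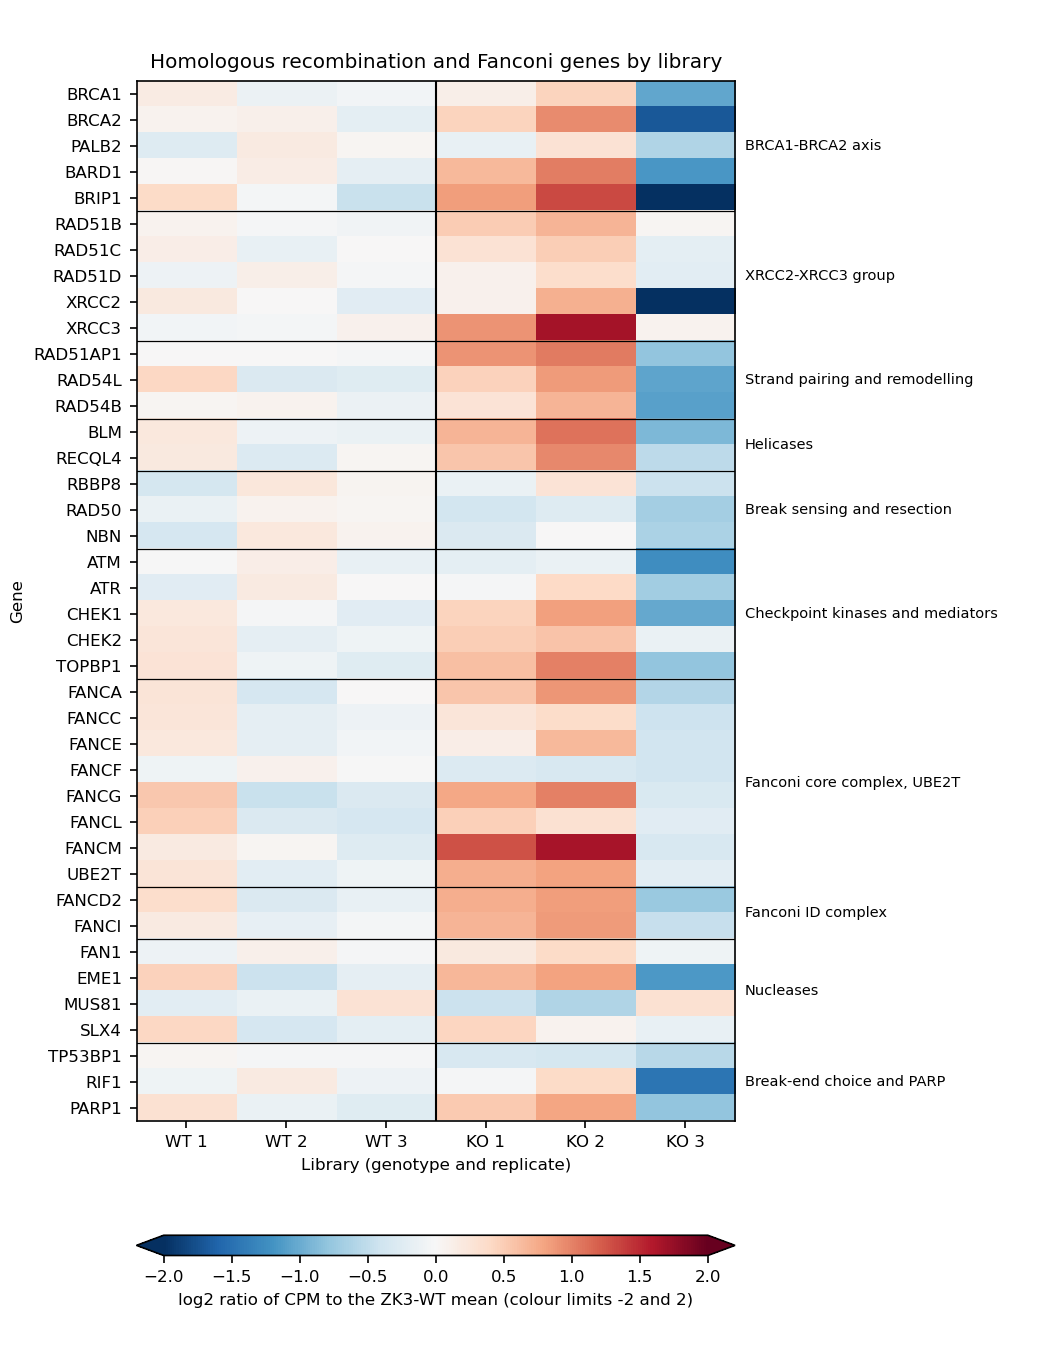
Each row is 1 of the 40 members, ordered by role, and each column 1 library. Colour is the log2 ratio of CPM to the *ZK3*-WT mean, red above and blue below, cut at -2 and 2: the columns of *ZK3*-KO replicates 1 and 2 are mostly red (medians 0.44 and 0.68) and that of replicate 3 is mostly blue (median -0.59).

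For 24 members both *ZK3*-KO replicates 1 and 2 lay above every *ZK3*-WT library, which held for 24.5% of all genes. For 19 of these 24, *ZK3*-KO replicate 3 lay below every *ZK3*-WT library as well, a pattern shown by 6.79% of all genes. The other 5 were *CHEK2*, *FAN1*, *FANCG*, *RAD51B* and *XRCC3*, in which replicate 3 fell within the range of the *ZK3*-WT values. In 25 members the level in *ZK3*-KO replicate 2 was at least 2-fold that in replicate 3, against 11.0% of genes, and the members' median log2 ratio of replicate 2 over replicate 3 was 1.31, where the median of all genes was -0.02 and the middle 50% of genes lay between -0.59 and 0.52. Library by library comparisons of this kind have no replicate check and were not tested.

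With *ZK3*-KO replicate 3 left out, 16 members reached an FDR below 0.05 by edgeR's quasi-likelihood test, where 15.1% of the 18872 genes tested passed. All 16 were higher in *ZK3*-KO cells, a direction in which 7.41% of genes passed, and the members' median log2 fold change was 0.51 against -0.02 over all genes. The library was set apart with its values known, so these calls describe the other 5 libraries and are not independent of that choice. They are named in the account of each role below, where "without replicate 3" always refers to this fit, and where a gene is said to have risen only if it passed there. In the plot of fold changes, the standard errors of 39 members were also smaller without replicate 3, as for *BRIP1*, 0.69 with all libraries and 0.24 without it, and that of 1 member, *FANCF*, was slightly larger, 0.17 and 0.18. The share of all genes with a smaller standard error was not computed, so whether this is particular to the members is not known.

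**Figure D2:**
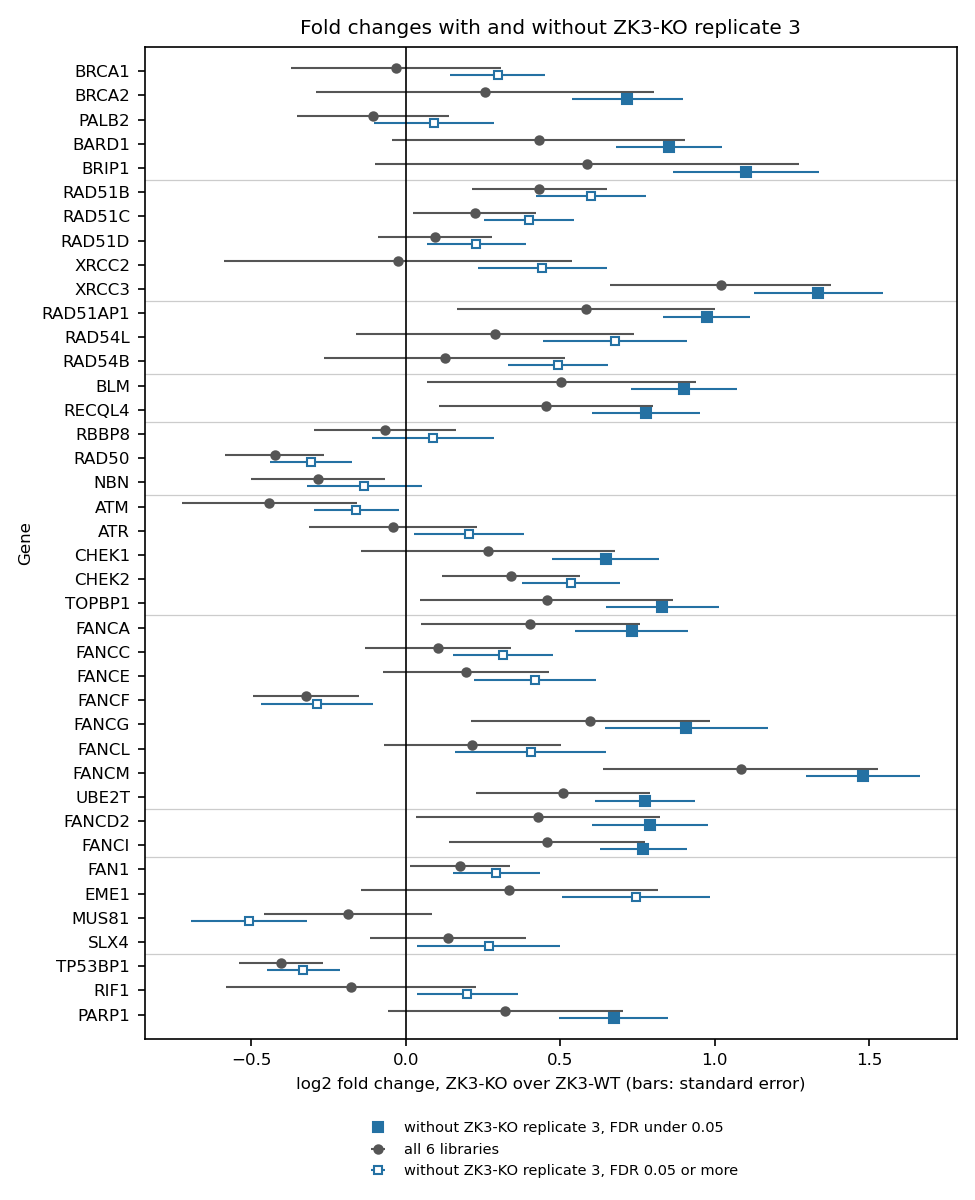
Points are log2 fold changes of the 40 members, *ZK3*-KO over *ZK3*-WT, with standard errors from edgeR. Grey circles are the fit of all 6 libraries, in which 0 members passed an FDR of 0.05, and blue squares the fit without *ZK3*-KO replicate 3, filled for the 16 members that passed, all to the right of 0.

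The largest differences between cultures were in the BRCA1-BRCA2 axis, whose 5 genes had a median log2 ratio of *ZK3*-KO replicate 2 over replicate 3 of 2.19. *BRCA1*, the scaffold and ubiquitin ligase that starts recombination, had 63.3, 52.1 and 54.1 CPM in *ZK3*-WT cells and 61.1, 77.1 and 27.5 CPM in *ZK3*-KO cells, each set in the order of replicates 1, 2 and 3 as throughout. *ZK3*-KO replicate 1 lay among the *ZK3*-WT values, replicate 2 above them and replicate 3 below, so that the log2 fold change was -0.03 (SE 0.34, FDR 0.973 from edgeR's quasi-likelihood test), and 0.30 without replicate 3 (FDR 0.215). *BRCA2*, which acts on the trimmed strands, had 27.3, 27.8 and 22.7 CPM in *ZK3*-WT cells and 35.2, 49.8 and 7.99 CPM in *ZK3*-KO cells. Its level in *ZK3*-KO replicate 2 was 6.23 times that in replicate 3, with the *ZK3*-WT libraries between them. The log2 fold change was 0.26 (SE 0.55, FDR 0.843), and without replicate 3 *BRCA2* rose by 0.72 (SE 0.18, FDR 0.0307).

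*BARD1*, the obligate partner of BRCA1, had 18.2, 19.8 and 15.8 CPM in *ZK3*-WT cells and 28.1, 36.5 and 7.98 CPM in *ZK3*-KO cells. *BRIP1* (FANCJ), a helicase that binds BRCA1, had 32.9, 24.6 and 18.6 CPM in *ZK3*-WT cells and 45.1, 63.0 and 6.17 CPM in *ZK3*-KO cells. Both showed the same order, with *ZK3*-KO replicates 1 and 2 above and replicate 3 below all *ZK3*-WT libraries, and *BRIP1* had the largest ratio of any member between replicates 2 and 3, at 10.2. Without replicate 3 both rose, by 0.85 for *BARD1* (FDR 0.0149) and by 1.10 for *BRIP1* (FDR 0.0184), in edgeR's test. *PALB2*, which bridges BRCA1 and BRCA2, differed less: it had 18.6, 25.1 and 22.9 CPM in *ZK3*-WT cells and 19.98, 27.2 and 14.7 CPM in *ZK3*-KO cells, and passed in neither fit (FDR 0.856 and 0.782).

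**Figure D3:**
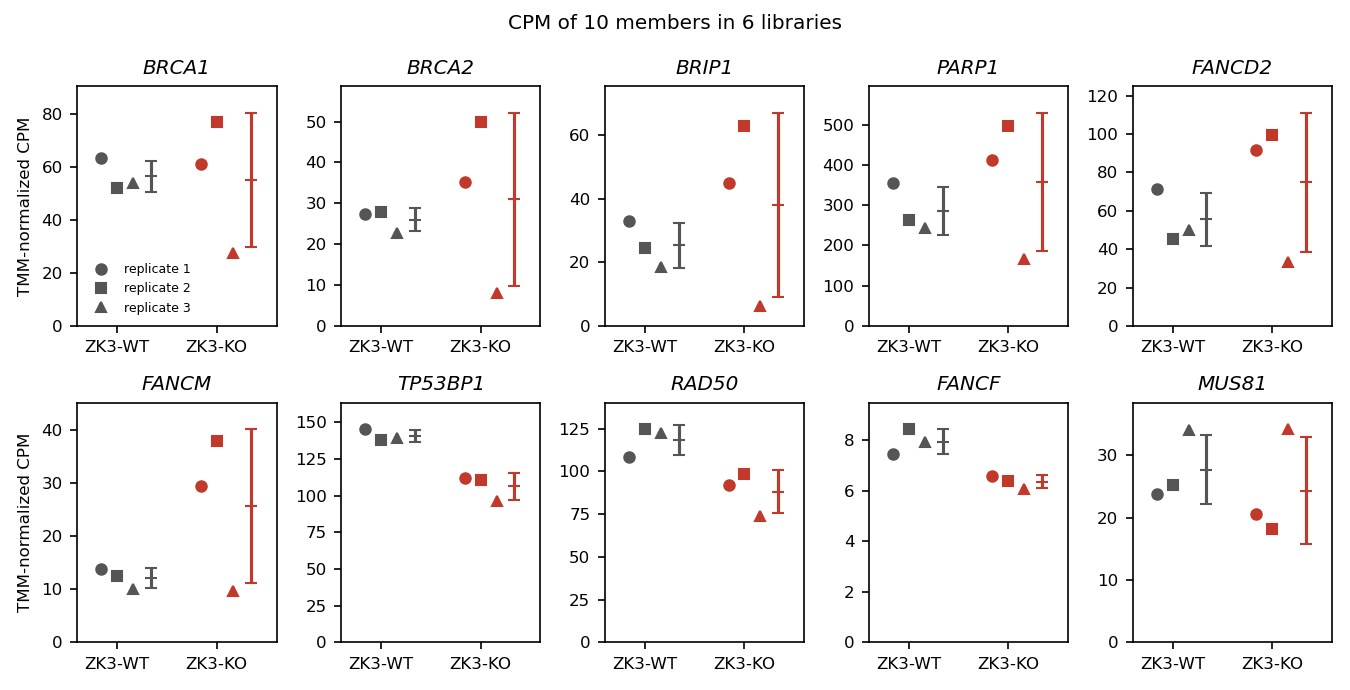
TMM-normalized CPM of 10 members in each library, *ZK3*-WT in grey and *ZK3*-KO in red, with circles, squares and triangles for replicates 1, 2 and 3 and bars for the mean and SD (n = 3). In *BRCA1*, *BRCA2*, *BRIP1*, *PARP1* and *FANCD2* the *ZK3*-KO triangle lies below all *ZK3*-WT points, and in *TP53BP1*, *RAD50* and *FANCF* all 3 *ZK3*-KO points do.

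The related proteins *XRCC2*, *XRCC3*, *RAD51B*, *RAD51C* and *RAD51D* assist BRCA2 on the trimmed strands, and their genes did not move as a block. *XRCC2* had the order of *BRCA1*, with 26.7, 23.5 and 19.9 CPM in *ZK3*-WT cells and 24.7, 38.4 and 5.73 CPM in *ZK3*-KO cells, a 6.70-fold range between knockout replicates 2 and 3, and it did not pass without replicate 3 (log2 fold change 0.44, FDR 0.179). *XRCC3* instead had 18.3, 18.6 and 20.3 CPM in *ZK3*-WT cells and 35.7, 60.2 and 20.1 CPM in *ZK3*-KO cells, so that its lowest knockout library lay at the *ZK3*-WT level. Its log2 fold change was 1.02 with all libraries (SE 0.36, FDR 0.199) and it rose by 1.34 without replicate 3 (FDR 0.00586). *RAD51B* was low throughout, with 5.65 to 6.22 CPM in *ZK3*-WT cells and 6.07 to 9.45 CPM in *ZK3*-KO cells, and missed the threshold without replicate 3 (log2 fold change 0.60, FDR 0.0533). *RAD51C* and *RAD51D* differed little, with log2 fold changes of 0.22 and 0.09 in all libraries and 0.40 and 0.23 without replicate 3 (FDR 0.0957 and 0.358). Of these 5 genes, only *XRCC3* passed without replicate 3.

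*XRCC3* (chr14:104163946-104181841 of GRCh37, minus strand), *FANCM* (chr14:45605133-45670093, plus strand) and *RAD51B* (chr14:68286496-69196935, plus strand) share chromosome 14, on which 416 of 523 tested genes were higher in *ZK3*-KO cells, with a median log2 fold change of 0.51 and 57 genes past an FDR of 0.05. Over all genes tested, 51.7% were higher and 2.05% passed. The 523 genes of chromosome 14 had median log2 ratios to the parental mean of 0.46, 0.46 and 0.38 in *ZK3*-KO replicates 1, 2 and 3. *XRCC3* and *FANCM* had the largest log2 fold changes of all members, above the median of their chromosome, and *RAD51B*, at 0.43, lay below it. Without these 3 genes the median of the other 37 members was 0.22. Of the annotated exon bases of *XRCC3*, 76.7% are shared with *KLC1* on the opposite strand, which had a log2 fold change of 0.39 (SE 0.21, FDR 0.373 in edgeR's test), and whether the authors' counting used the strand is not given in the sources used here.

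Genes of strand pairing and remodelling showed the same split between cultures. *RAD51AP1*, which promotes strand pairing, was the most even member among *ZK3*-WT cells at 15.0, 14.9 and 14.6 CPM, and had 27.5, 30.5 and 8.58 CPM in *ZK3*-KO cells. All 3 knockout values lay outside the narrow *ZK3*-WT range, on both sides of it. Its log2 fold change was 0.58 (SE 0.42, FDR 0.505), and without replicate 3 it rose by 0.97 (SE 0.14, FDR 0.00416). The motor proteins *RAD54L* and *RAD54B*, which remodel the joined strands, had 7.04 and 12.4 CPM in *ZK3*-KO replicate 3 against 26.2 and 42.2 CPM in replicate 2. They missed the threshold without replicate 3 (log2 fold changes 0.68 and 0.49, FDR 0.0828 and 0.0722). *RAD54B* shares 66.0% of its exon bases with *FSBP* on the same strand, to which at most 143 reads were assigned in a library. *RAD54L* shares 19.9% of its exon bases with *LRRC41* on the opposite strand.

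*BLM* and *RECQL4* are RecQ helicases, of which *BLM* takes apart joined recombination intermediates. *BLM* had 31.2, 25.0 and 24.6 CPM in *ZK3*-WT cells and 43.2, 57.0 and 14.5 CPM in *ZK3*-KO cells, and *RECQL4* had 108, 78.0 and 96.6 CPM in *ZK3*-WT cells and 139, 183 and 65.9 CPM in *ZK3*-KO cells. In both genes the *ZK3*-KO libraries enclosed the *ZK3*-WT libraries. The log2 fold changes were 0.50 (FDR 0.586) and 0.45 (FDR 0.534), and without replicate 3 they rose by 0.90 (FDR 0.0125) and 0.78 (FDR 0.0212).

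The 3 genes of break sensing and resection had negative log2 fold changes with all libraries, with a median of -0.29, and none passed. Without replicate 3 the median was -0.13 and *RBBP8* turned positive. *RAD50*, the long coiled-coil subunit of the MRE11-RAD50-NBN complex that first binds broken ends, had 108, 125 and 122 CPM in *ZK3*-WT cells and 92.1, 98.7 and 73.9 CPM in *ZK3*-KO cells. The groups did not overlap, and replicates 1 and 2 shared the direction of replicate 3. The log2 fold change was -0.42 (SE 0.16, unadjusted p 0.0311, FDR 0.224 in edgeR's test), and -0.31 without replicate 3 (FDR 0.147). *NBN*, its regulatory subunit, had 78.4, 115 and 104 CPM in *ZK3*-WT cells and 81.0, 99.4 and 63.9 CPM in *ZK3*-KO cells, and a log2 fold change of -0.29 (FDR 0.532), or -0.13 without replicate 3 (FDR 0.661). *RBBP8* overlapped between the groups, with 72.8 to 108 CPM in *ZK3*-WT cells and 68.5 to 112 CPM in *ZK3*-KO cells, and a log2 fold change of -0.07 (FDR 0.908), or 0.09 without replicate 3 (FDR 0.792). *MRE11*, the nuclease of the complex and not a member, had 35.8, 35.5 and 35.2 CPM in *ZK3*-WT cells and 28.1, 29.3 and 19.1 CPM in *ZK3*-KO cells (log2 fold change -0.48, SE 0.19, FDR 0.241, and -0.30 with an FDR of 0.149 without replicate 3).

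Only 3 members had lower values in every *ZK3*-KO library than in any *ZK3*-WT library (*RAD50*, *TP53BP1* and *FANCF*), where 13.8% of all genes did, and no member had the reverse, where 12.7% of all genes did. *TP53BP1*, which shields broken ends from trimming and favours end joining, had 145, 138 and 139 CPM in *ZK3*-WT cells and 112, 110 and 96.0 CPM in *ZK3*-KO cells. It was lower in 3 of 3 knockout libraries and its spread within each genotype was small, with means of 141 ± 4.04 CPM in *ZK3*-WT and 106 ± 8.92 CPM in *ZK3*-KO cultures (SD, n = 3 each). The log2 fold change was -0.40 (SE 0.14, unadjusted p 0.0191, FDR 0.184 in edgeR's test) and -0.33 without replicate 3 (FDR 0.0929). Its exons share 28.8% of their bases with *TUBGCP4* on the opposite strand, whose log2 fold change of 0.28 (FDR 0.639) had the other sign.

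*RIF1*, which acts with TP53BP1, did not share its pattern: it had 101, 121 and 99.7 CPM in *ZK3*-WT cells and 105, 140 and 39.0 CPM in *ZK3*-KO cells (log2 fold change -0.18, FDR 0.853, and 0.20 with an FDR of 0.440 without replicate 3). *PARP1*, named above as the most abundant member, had 354, 262 and 243 CPM in *ZK3*-WT cells and 412, 497 and 166 CPM in *ZK3*-KO cells. Replicate 2 was thus 3.00-fold above replicate 3. The log2 fold change of *PARP1* was 0.32 (SE 0.38, FDR 0.706) and it rose by 0.67 without replicate 3 (SE 0.18, FDR 0.0346).

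Of the 5 checkpoint kinases and mediators, *CHEK1* and *TOPBP1* rose without replicate 3 and the other 3 did not pass. *CHEK1*, the kinase that holds the cycle when replication stalls, had 44.1, 37.7 and 32.8 CPM in *ZK3*-WT cells and 51.8, 67.3 and 18.8 CPM in *ZK3*-KO cells. *TOPBP1*, the activator of ATR, had 82.9, 64.1 and 57.9 CPM in *ZK3*-WT cells and 104, 137 and 39.4 CPM in *ZK3*-KO cells. Without replicate 3 their log2 fold changes were 0.65 (FDR 0.0371) and 0.83 (FDR 0.0197), and in both the knockout libraries enclosed the *ZK3*-WT libraries. *ATR* itself, the kinase above CHEK1, had log2 fold changes of -0.04 with all libraries (FDR 0.956) and 0.20 without replicate 3 (FDR 0.470). *ATM*, the kinase that answers double-strand breaks, had 74.2, 82.3 and 67.6 CPM in *ZK3*-WT cells and 65.1, 68.1 and 31.7 CPM in *ZK3*-KO cells, the most negative log2 fold change of the members at -0.44 (SE 0.28, FDR 0.454). Without replicate 3 the value was -0.16 (FDR 0.464). *CHEK2*, the kinase below ATM, ranged from 21.5 to 28.8 CPM in *ZK3*-WT cells and from 22.3 to 36.3 CPM in *ZK3*-KO cells, and missed the threshold without replicate 3 (log2 fold change 0.54, FDR 0.0523).

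Of the genes of the Fanconi core complex and *UBE2T*, the conjugating enzyme that works with it, 7 of 8 had positive log2 fold changes, with a median of 0.31, and 4 rose without replicate 3. *FANCM* had 13.8, 12.5 and 10.1 CPM in *ZK3*-WT cells and 29.4, 37.9 and 9.71 CPM in *ZK3*-KO cells, so that 2 knockout cultures were more than 2-fold above every *ZK3*-WT culture and the third just below. It had the largest log2 fold change of all members, 1.08 with all libraries (SE 0.44, unadjusted p 0.0425, FDR 0.255) and 1.48 without replicate 3 (SE 0.18, FDR 0.00230 in edgeR's test). *FANCA*, a structural subunit of the complex and the gene most often mutated in Fanconi anaemia, had 94.6, 62.7 and 79.3 CPM in *ZK3*-WT cells and 116, 145 and 52.3 CPM in *ZK3*-KO cells. The exons of *FANCA* share 19.6% of their bases with *ZNF276* on the opposite strand, whose log2 fold change was -0.21 (FDR 0.812). *FANCG*, the direct partner of FANCA, had 40.3, 20.3 and 22.6 CPM in *ZK3*-WT cells and 47.6, 55.7 and 22.3 CPM in *ZK3*-KO cells. Their rises without replicate 3 were 0.73 (FDR 0.0296) and 0.91 (FDR 0.0490), the second close to the threshold and in a gene whose *ZK3*-WT libraries themselves ranged from 20.3 to 40.3 CPM. *UBE2T*, with 32.7, 23.7 and 25.9 CPM in *ZK3*-WT cells and 45.5, 47.8 and 23.6 CPM in *ZK3*-KO cells, rose by 0.77 (FDR 0.0166).

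The remaining subunits did not pass in either fit. *FANCC* and *FANCE*, which link the core complex to FANCD2, had log2 fold changes of 0.10 and 0.19 with all libraries and 0.31 and 0.42 without replicate 3 (FDR 0.213 and 0.177). *FANCL*, the ubiquitin ligase of the complex, had 10.8 to 18.9 CPM in *ZK3*-WT cells and 11.6 to 19.0 CPM in *ZK3*-KO cells (log2 fold change 0.22, FDR 0.739, and 0.40 with an FDR of 0.287 without replicate 3). *FANCF*, an adaptor subunit, went the other way from the rest, with 7.46, 8.43 and 7.94 CPM in *ZK3*-WT cells and 6.60, 6.37 and 6.08 CPM in *ZK3*-KO cells. All 3 knockout cultures were close to each other and below every *ZK3*-WT culture, but the difference was small (log2 fold change -0.32, SE 0.17, FDR 0.369, and -0.29 with an FDR of 0.305 without replicate 3).

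The ID complex is the target of that ubiquitin. *FANCD2* had 71.3, 45.5 and 50.1 CPM in *ZK3*-WT cells and 91.6, 99.7 and 33.2 CPM in *ZK3*-KO cells, and *FANCI* had 99.4, 78.3 and 85.2 CPM in *ZK3*-WT cells and 140, 157 and 63.7 CPM in *ZK3*-KO cells. The 2 partners ranked the knockout libraries in the same order, replicate 2 over 1 over 3, as did most members. With all libraries the log2 fold changes were 0.43 (SE 0.40, FDR 0.614) and 0.46 (SE 0.32, FDR 0.491), and without replicate 3 they rose by 0.79 (FDR 0.0250) and 0.77 (FDR 0.0107).

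The nucleases that cut crosslinks and joint molecules were the least alike. *EME1* had 19.2, 10.4 and 12.4 CPM in *ZK3*-WT cells and 22.2, 24.4 and 6.34 CPM in *ZK3*-KO cells, the order of *BRCA2*, with a log2 fold change of 0.74 and an FDR of 0.0672 without replicate 3. *MUS81*, the catalytic partner of EME1, showed the reverse order, with 23.9, 25.3 and 34.0 CPM in *ZK3*-WT cells and 20.7, 18.2 and 34.2 CPM in *ZK3*-KO cells. It was the only member with less RNA in *ZK3*-KO replicate 2 than in replicate 3 (log2 ratio -0.91), and its log2 fold change was -0.19 (FDR 0.763), or -0.51 without replicate 3 (FDR 0.101). Its exons share 13.9% of their bases with *CFL1* on the opposite strand, which had 33743 to 55767 reads where *MUS81* had 1263 to 2380. *SLX4*, a scaffold for these nucleases, had 15.9 to 26.8 CPM in *ZK3*-WT cells and 18.0 to 27.0 CPM in *ZK3*-KO cells, and *FAN1*, which trims DNA at crosslinks, had 44.0 to 50.6 CPM and 44.3 to 61.0 CPM. Their log2 fold changes were 0.14 (FDR 0.815) and 0.17 (FDR 0.614), and without replicate 3 they were 0.27 (FDR 0.462) and 0.29 (FDR 0.183).

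**Figure D4:**
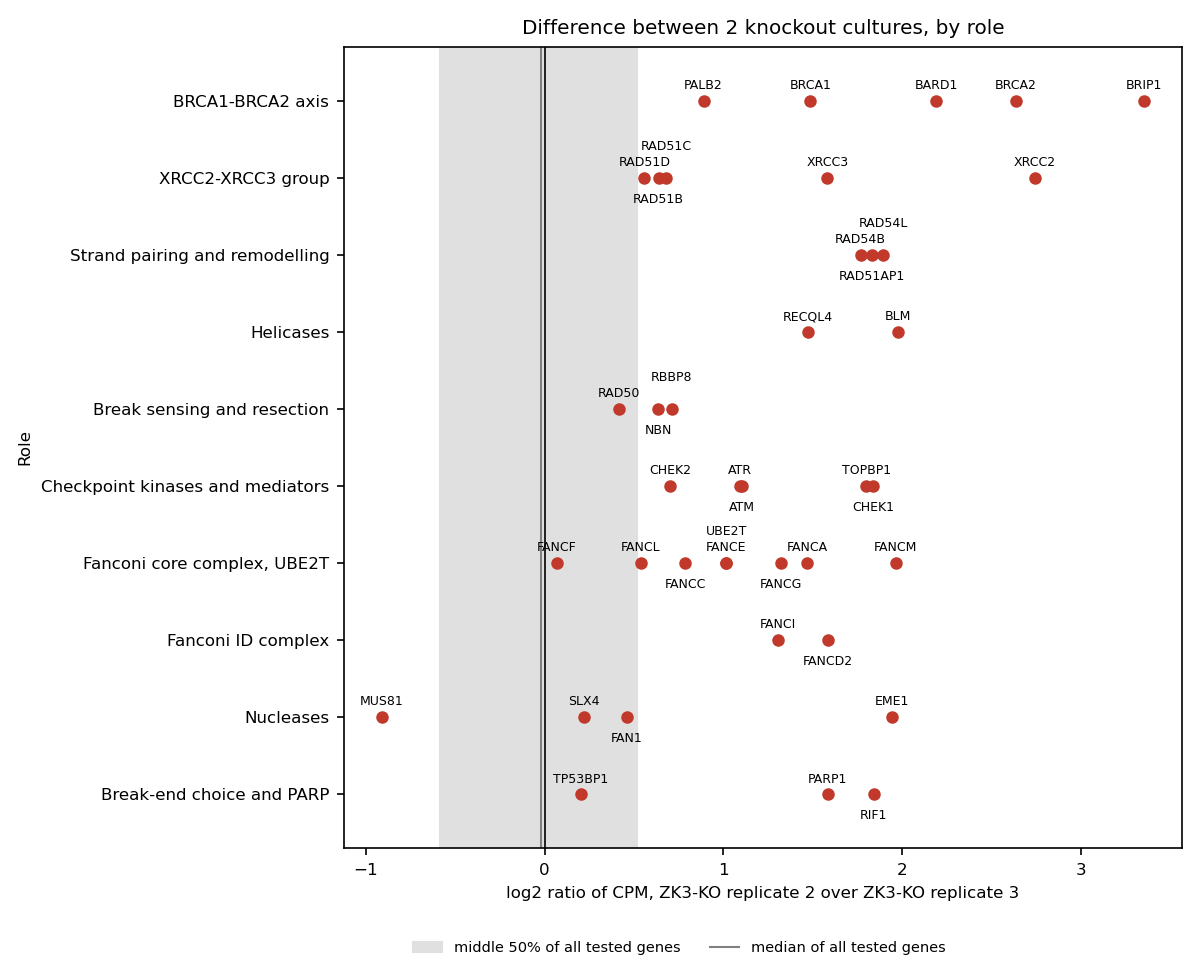
Each point is 1 member, placed by the log2 ratio of its CPM in *ZK3*-KO replicate 2 over replicate 3 and grouped by role. The grey band holds the middle 50% of all tested genes (-0.59 to 0.52), *BRIP1* lies farthest to the right at 3.35 and *MUS81* alone lies to the left of 0, at -0.91.

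Members with and without the E2F-like letters overlapped in this difference. The 5 members with an E2F-like match had log2 ratios of replicate 2 over replicate 3 from 0.79 to 2.74, with a median of 1.59, and the 31 without one ranged from -0.91 to 3.35, with a median of 1.09. *BRIP1*, whose promoter held none of these letters, had the largest ratio, and *FANCC*, with 2 matches, had the smallest of the 5.

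Other genes of the same pathways were examined as a list of 58 that are not members. None passed an FDR of 0.05 with all libraries in edgeR or DESeq2, where 376 and 1506 of all 18366 genes did. In *ZK3*-KO cells 39 were higher, where 51.7% of all genes were, with a median log2 fold change of 0.12. An unadjusted p-value under 0.05 was reached by 5 in edgeR, against 18.4% of all genes, and by 7 in DESeq2, whose share over all genes is not given here. The 5 in edgeR were *RMI2*, *ATRIP* and *BABAM1*, which were higher, and *MRE11* and *WRN*, which were lower. Without replicate 3, 16 passed, of which 15 rose, where 15.1% of all genes passed and 7.41% rose. Among them were *CLSPN*, which helps ATR activate CHEK1 (1.61, FDR 0.00398), *EXO1*, the nuclease of long-range resection (1.19, FDR 0.0105), *TONSL*, a replication-coupled repair factor (1.15, FDR 0.0129), and *CENPX*, a cofactor of FANCM (1.08, FDR 0.0186), followed by *RMI2*, a partner of BLM (0.89, FDR 0.0215), and *RPA3*, a subunit of the single-strand binding protein (0.85, FDR 0.0426), in edgeR's test. *ZSWIM7*, a partner of SWSAP1, was the 1 gene that fell (-0.95, FDR 0.0222), and with 26.2 CPM in *ZK3*-KO replicate 3 against 11.3 and 9.98 CPM in replicates 1 and 2 it had the order of *MUS81*. *MAD2L2* (REV7), which acts with TP53BP1 and RIF1 at broken ends, had a log2 fold change of -0.06 (SE 0.15, FDR 0.869), or -0.13 without replicate 3 (FDR 0.601).

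Genes of classical end joining, the rival route of break repair, went both ways. Of 10 genes, 5 were higher and 5 lower with all libraries, none passed an FDR of 0.05 in edgeR, and against the parental mean the list's median log2 ratio was -0.06, -0.03 and -0.08 in knockout replicates 1, 2 and 3. Without replicate 3, 3 of its genes rose, where 7.41% of all genes did, namely *XRCC5* and *XRCC6*, the subunits of Ku, by 0.57 (FDR 0.0220) and 0.66 (FDR 0.0289), and *PRKDC*, the kinase they recruit, by 0.61 (FDR 0.0300). *XRCC4*, the scaffold of the ligase, had the lowest FDR of the list with all libraries (log2 fold change -0.57, FDR 0.125 in edgeR). It was the 1 gene of the 10 that passed in DESeq2 (FDR 0.0303), where 1506 of all 18366 genes tested passed. *PRKDC* had 799, 631 and 590 CPM in *ZK3*-WT cells and 946, 1098 and 262 CPM in *ZK3*-KO cells, the order seen in *BRCA2*. The difference between this list and the members was not tested.

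Genes of the cell cycle moved with the members. A list of 39 S phase genes, among them the MCM helicase and the replication polymerases, had medians relative to the *ZK3*-WT mean of 0.71, 1.15 and -0.68 in *ZK3*-KO replicates 1, 2 and 3, and a list of 25 G2/M genes had 0.49, 0.56 and -0.33. The members' medians of 0.44, 0.68 and -0.59 thus had the same order. All 39 S phase genes were higher in *ZK3*-KO cells with all libraries (median log2 fold change 0.62), and none of them passed an FDR of 0.05 in edgeR. In edgeR 4 (*CCNE1*, *FEN1*, *PCNA* and *GINS3*) had an unadjusted p-value under 0.05, against 18.4% of all genes. An FDR of 0.05 was passed by 1 in DESeq2 (*CCNE1*, FDR 0.00775), where 1506 of all 18366 genes passed. Without replicate 3, 33 passed in edgeR, where 15.1% of all genes did. Of the G2/M genes, 23 were higher (median 0.31) and 10 passed without replicate 3, against the same 15.1% of all genes. The part of the cell cycle in the members' differences was not tested.

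**Figure D5:**
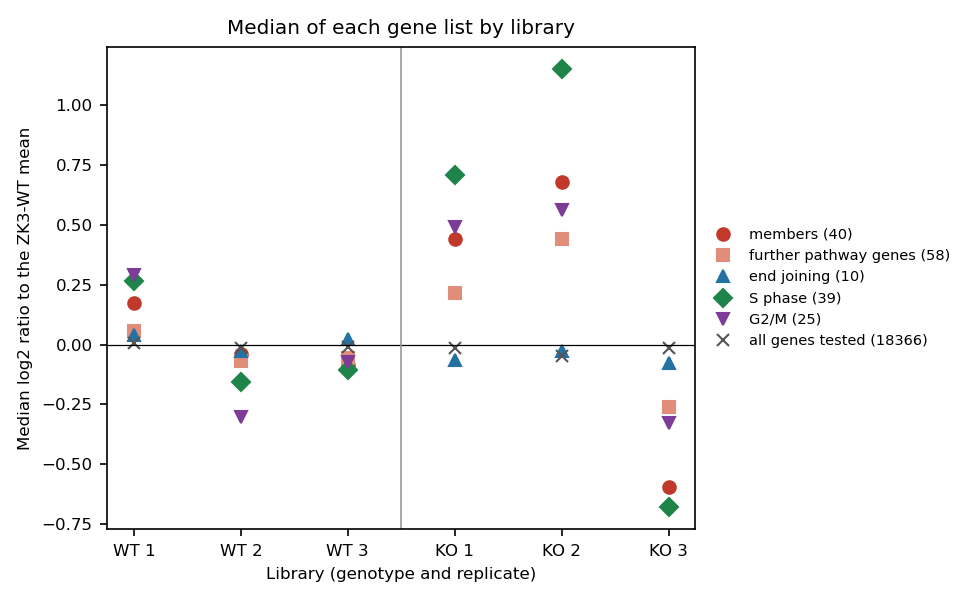
The median log2 ratio of CPM to the *ZK3*-WT mean of each gene list, plotted for each library. The medians of members, further pathway genes, S phase and G2/M lists lie above 0 in *ZK3*-KO replicates 1 and 2 and below 0 in replicate 3 (members 0.44, 0.68 and -0.59). Those of end joining genes and of all genes tested stay between -0.08 and 0.04 in every library.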

How the data were processed

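RNA of 3 *ZK3*-WT and 3 *ZK3*-KO cultures, described as biological triplicates, was sequenced on an Illumina instrument. The authors deposited 1 table of 46427 genes, in which the unnormalized count of reads per gene and library was used as the main measurement. The authors made these counts with Bowtie2 2.2.5, a version credited to the submitters' processing notes, against hg19. The methods name an Ensembl annotation, while the table lists NCBI Gene identifiers. TPM values deposited by the authors, scaled by transcript length, served for levels between genes and in 1 alternative, and the FPKM values that the authors deposited were not used. Columns without a sample numbered 0.

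The analysis used edgeR 4.0.16 in R 4.3.3: genes were filtered with filterByExpr (18366 left), normalized with TMM factors (0.910 in *ZK3*-KO replicate 3, 0.994 to 1.03 elsewhere) and compared by the quasi-likelihood test over all 6 libraries with genotype as the only term. P-values were adjusted over all genes tested by the Benjamini-Hochberg method, and every FDR, unless DESeq2 or limma is named, comes from that test. The SE is the absolute log2 fold change divided by the square root of the test's F. The authors modelled TPM by analysis of variance, which limma 3.58.1 on log2(TPM + 1) replaced here as an alternative. The other alternatives were DESeq2 1.42.0, other normalizations, other filters, the replicate number as a block and each library left out. Scripts were tested on simulated data.

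Deviations from the genotype's mean correlated across genes at 0.294, 0.112 and 0.449 between same-numbered *ZK3*-WT and *ZK3*-KO libraries. Differently numbered pairs had correlations from -0.343 to 0.209. The highest of these, *ZK3*-WT replicate 1 with *ZK3*-KO replicate 2, lay above the pair numbered 2. The numbers were treated as pairing the cultures in the blocked fit only. What a number marks is not given in the sources used here. Replicate pairs differed by more than sampling noise.

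The named genes are all 40 members, *ZKSCAN3*, *MAD2L2*, *MRE11* and, per further list, at most 8 genes past the threshold with or without *ZK3*-KO replicate 3. *ATRIP*, *BABAM1*, *WRN*, *XRCC4*, *CCNE1*, *FEN1*, *PCNA* and *GINS3* were named after their values were seen. Another gene that the rule names and the leukocyte markers are not reported here. The members, the lists and the interest in chromosome 14 and in *ZK3*-KO replicate 3 were chosen with earlier results of these data known. Gene positions and exon overlaps come from GENCODE on GRCh37, matched by symbol. Promoters come from RefSeq on GRCh38.p14, matched by NCBI Gene identifier, and only the first listed window of each gene was kept. They were searched with Python 3.11.15.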

Additional observations from a re-analysis of the deposited data

How the results depend on the processing

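With all 6 libraries, no member and no further pathway gene passed an FDR of 0.05 under any other normalization, filter or tool tried, and *ZK3*-KO replicate 3 was the 1 library whose removal gave calls. Leaving out 1 library at a time gave 0 to 16 members and 0 to 16 further pathway genes past the threshold, with 16 of each only without *ZK3*-KO replicate 3. The members' median log2 fold change, 0.24, ranged from 0.0098 (without *ZK3*-KO replicate 2) to 0.51 (without *ZK3*-KO replicate 3), and that of the further pathway genes, 0.12, from -0.0017 to 0.35 in the same fits. Of the 40 members, 14 changed sign under at least 1 of 14 alternatives.

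Leaving out 1 library at a time turned the sign of the following log2 fold changes, given as their lowest and highest values: *BRCA1* -0.35 and 0.30, *BRCA2* -0.27 and 0.72, *PALB2* -0.36 and 0.092, *RAD51D* -0.054 and 0.23, *XRCC2* -0.62 and 0.44, *RAD54L* -0.10 and 0.68, *RAD54B* -0.26 and 0.49, *RBBP8* -0.28 and 0.090, *ATR* -0.32 and 0.20, *CHEK1* -0.11 and 0.65, *FANCC* -0.048 and 0.31, *FANCE* -0.096 and 0.42, *SLX4* -0.028 and 0.40, and *RIF1* -0.57 and 0.20. Apart from *SLX4*, the lowest value came without *ZK3*-KO replicate 2 and the highest without *ZK3*-KO replicate 3.

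With the replicate number as a block, 0 members passed, 26 were higher and their median was 0.15. The median of the further pathway genes was 0.046, and *BRCA2* (-0.068) and *RAD54B* (-0.036) changed sign. The block changed no call of a member or a further pathway gene.

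In limma on log2(TPM + 1), which moved the median of all genes to -0.08 from 0.02, 24 members were higher with a median of 0.037. The median of the further pathway genes was -0.059, and *BRCA2* (-0.081), *RAD51D* (-0.062), *RAD54B* (-0.025) and *FANCC* (-0.021) were below 0. Over all genes, edgeR called 376, DESeq2 1506 and the fits without 1 library 49 to 158, or 2858 without *ZK3*-KO replicate 3. The cause of these changes was not tested.

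The SD of CPM among the 3 *ZK3*-KO cultures exceeded the difference between the genotype means for 35 of 40 members. The share over all genes was not computed, so whether this count is particular to the members is not known. Each member had at least 354 reads in every library, and the part of depth was not tested.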
